A study of Mus musculus with 12 samples.

Results

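Mouse genes whose symbol starts with Kcn encode the pore-forming and accessory subunits of potassium channels, and their mRNA was measured in 3 cell lines. The members were chosen by symbol alone, after each array target was matched to a gene symbol through its transcript accession. Of 98 such symbols in the annotation, 84 had a target on the array, among 25128 genes and unnamed targets tested in all, and the other 14 were not analysed here. The arrays held 3 probes per target, and all 93 targets of the 84 members carried 3 probes. AtT20 is a neuroendocrine line from a mouse pituitary tumour, BV2 is a mouse microglial line kept in conditions that favour a resting state, and N18 is a mouse neuroblastoma line. Each line was represented by 4 plates, all untreated and grown in DMEM with fetal bovine serum, so the 12 samples form 3 groups of 4. Each group is a single line, and its plates are repeat cultures of that line: a difference between groups belongs to the lines and not to the cell types they stand for.

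Potassium channels let potassium leave or enter a cell along its electrochemical gradient, and so set the resting potential and end the action potential. Voltage-gated (Kv) pores open on depolarization and are tuned by modifier and accessory subunits, calcium-activated pores open when internal calcium rises, inward rectifiers hold the potential near rest, and two-pore-domain channels carry a background leak. Neurons use many Kv pores at once, among them the Kcnq pores of the M-current, while microglia are known for the calcium-activated pore Kcnn4, the voltage-gated pore Kcna3, the inward rectifier Kcnj2 and the leak channel Kcnk13.

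Levels are log2 values of the mean probe intensity of a gene, from which the mean of 10 seminal proteins measured on that same plate, genes taken as not expressed in these lines, was subtracted. A gene was called above the threshold in a line when the mean of its 4 plates exceeded 2 SD of those proteins, which was 0.37 in AtT20, 0.56 in BV2 and 0.74 in N18. The arrays of the plates labelled AtT20 stood apart: the interquartile range of their log2 intensities was 0.38 to 0.78, against 1.28 to 1.73 for BV2 and 1.91 to 2.21 for N18, and they correlated with the other plates at 0.40 to 0.50, while BV2 and N18 plates correlated with each other at 0.79 to 0.82 and plates of a line at 0.90 or more. Among markers of the labelled cell types, 9 of 11 microglial genes were above the threshold in BV2, 13 of 14 neuroblast genes in N18, and 1 of 10 pituitary genes in the plates labelled AtT20. The plates labelled AtT20 also had 9 of the 14 neuroblast genes above the threshold, with Nefl at 4.46, Nefm at 2.87 and Hand2 at 2.03, and N18 had 6 of the 10 pituitary genes. BV2 had 6 of the 14 neuroblast genes and 2 of the 10 pituitary genes above it, and N18 had 2 of the 11 microglial genes. Over all genes and targets, 35.0% were above the threshold in AtT20, 53.3% in BV2 and 55.4% in N18, and the marker counts were not tested against these shares. Pomc, the hormone precursor of this pituitary cell type, had a level of 0.29 ± 0.26 (SD, n = 4) in the plates labelled AtT20, below their threshold. Values in the plates labelled AtT20 are therefore given under that label without a claim on their cell type. Levels of different genes come from different probes and were not compared with each other.

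Sequence upstream of 4 members is shown because these genes differed between N18 and BV2 in opposite directions: Kcnh2 and Kcnmb4 were higher in N18, Kcnn4 and Kcnk13 in BV2. Each run is the 250 bases before the RefSeq transcript start in GRCm38.p6, read on the strand of the gene, with every match to GGGCGG (a GC box, bound by Sp1-type factors) or GAGGAA (the core that PU.1, a myeloid factor, binds) on either strand in capitals.
Kcnh2: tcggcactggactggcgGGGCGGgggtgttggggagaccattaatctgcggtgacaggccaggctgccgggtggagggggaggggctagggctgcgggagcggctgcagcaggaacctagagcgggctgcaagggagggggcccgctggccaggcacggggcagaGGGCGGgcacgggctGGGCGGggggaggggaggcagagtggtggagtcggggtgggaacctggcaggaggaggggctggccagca
Kcnmb4: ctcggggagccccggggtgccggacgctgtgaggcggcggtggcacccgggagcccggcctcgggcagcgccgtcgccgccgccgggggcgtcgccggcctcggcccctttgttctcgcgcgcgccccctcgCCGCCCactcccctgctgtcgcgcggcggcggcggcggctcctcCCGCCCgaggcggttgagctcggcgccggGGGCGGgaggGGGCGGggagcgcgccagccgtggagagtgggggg
Kcnn4: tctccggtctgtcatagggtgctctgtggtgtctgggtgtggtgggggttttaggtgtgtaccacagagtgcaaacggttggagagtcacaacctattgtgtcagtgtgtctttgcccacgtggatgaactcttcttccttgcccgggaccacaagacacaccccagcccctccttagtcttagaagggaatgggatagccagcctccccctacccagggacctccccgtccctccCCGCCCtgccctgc
Kcnk13: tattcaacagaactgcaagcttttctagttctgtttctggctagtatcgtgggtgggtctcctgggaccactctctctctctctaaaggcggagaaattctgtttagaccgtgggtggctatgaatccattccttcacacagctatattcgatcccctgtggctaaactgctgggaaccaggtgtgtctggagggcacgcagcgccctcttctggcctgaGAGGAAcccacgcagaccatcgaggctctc
The windows lie at chr5:24329592-24329841 (minus strand), chr10:116473524-116473773 (minus strand), chr7:24370013-24370262 (plus strand) and chr12:99964249-99964498 (plus strand). The Kcnh2 window held 3 GC boxes and the Kcnmb4 window 4, while the Kcnn4 window held 1 and the Kcnk13 window none. The only GAGGAA match of the 4 windows was in Kcnk13. GC content was 73.6% for Kcnh2, 83.6% for Kcnmb4, 58.8% for Kcnn4 and 52.8% for Kcnk13. Over all 32851 such windows, 32.7% held a GC box and 23.3% a GAGGAA core. Over the 88 windows of the 63 members listed there, the shares were 46.6% and 23.9%. A match is a string of letters and not a measured binding site.

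Of the 84 members, 29 (34.5%) were above the threshold in AtT20, 27 (32.1%) in BV2 and 27 (32.1%) in N18. Over all genes and targets tested, 35.0% were above it in AtT20, 53.3% in BV2 and 55.4% in N18. Potassium channel genes thus passed about as often as other genes in AtT20 and less often in the other lines, and no test of that difference was made. In BV2 and N18, the median level of the members was 0.36 and 0.46, against 0.64 and 0.93 over all genes and targets. Taken singly, all 4 plates passed their own threshold for 20 of the 29 members in AtT20, 14 of 27 in BV2 and 22 of 27 in N18. At least 2 probes passed for 14, 17 and 19 members in the same order of lines.

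Members above the threshold in all 3 lines numbered 11 of 84, and 39 were above it in none. Of all 25128 genes and targets, 6302 were above it in all 3 lines and 8147 in none, and no test of these counts was made. Among the 11 were the Kv pores Kcna7, Kcnh6 and Kcnq5, the ATP-sensitive inward rectifier Kcnj11, the leak channels Kcnk3, Kcnk6, Kcnk9 and Kcnk15, and the calcium-activated Kcnn4. Above it in N18 and in neither other line were the accessory subunits Kcnab1, Kcnip2 and Kcnip3 and the leak channel Kcnk1. Above it in BV2 and in neither other line were the inward rectifiers Kcnj5 and Kcnj6, the leak channel Kcnk10, the sodium-activated Kcnt1 and Kcnrg. The corresponding 9 genes of AtT20 were Kcnab3, Kcnc4, Kcnd3, Kcne2, Kcnh8, Kcnk12, Kcnn1, Kcnn3 and Kcnq1. Since the thresholds differ, a gene may pass in the line with the lower level. Kcnab3, Kcnd3 and Kcne2 had mean levels of 0.56, 0.55 and 0.39 in AtT20 and higher ones of 0.61, 0.64 and 0.52 in N18. Kcnq1 was at 0.39 in AtT20 and 0.43 in BV2, and Kcnk10 at 0.68 in BV2 and 0.72 in N18. Passing in one line and not in another is not a test of the difference, which is given by the line comparison below. Several members lay close to the threshold. By less than 1 SD of their own 4 plates, 14 of the 29 members in AtT20, 8 of 27 in BV2 and 5 of 27 in N18 were above it.

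**Figure D1:**
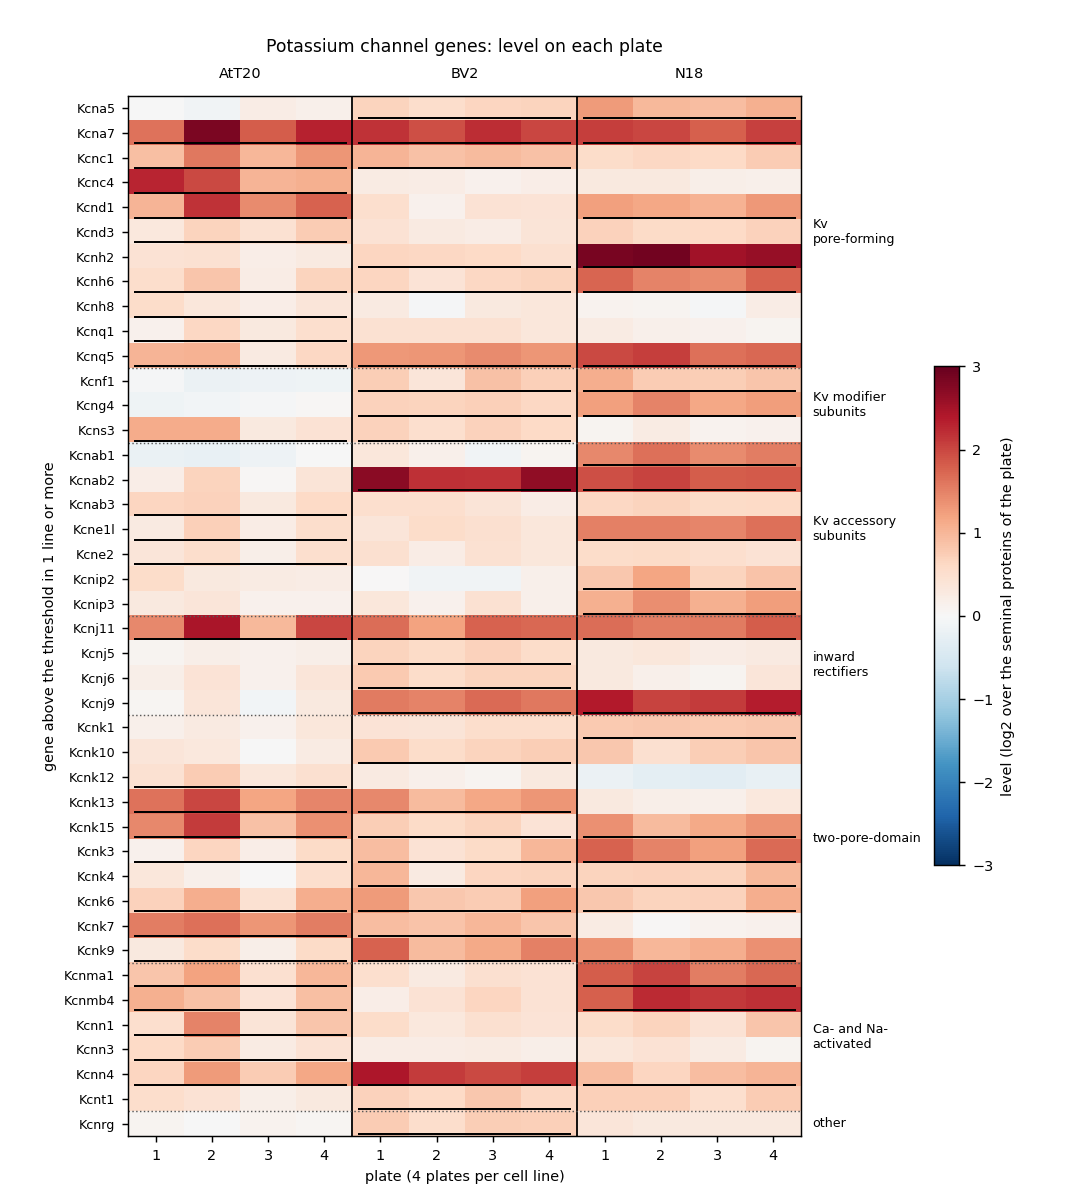
Level of 42 potassium channel genes above the threshold in at least 1 line, on the 12 plates (columns, 4 per line), in log2 units over the seminal proteins of the plate; a black rule under a block marks a gene above the threshold in that line. Kcnh2 stands out on all N18 plates, Kcnn4 on all BV2 plates, Kcnab2 on all BV2 plates and less so on all N18 plates, and Kcnc4 on all plates labelled AtT20.

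Lines were compared with limma on quantile normalized log2 values of all 12 arrays, with Benjamini-Hochberg adjustment over all 25128 genes and targets and a call at an adjusted p under 0.05. Because scaling to the seminal proteins shifts whole plates against each other, each call was also checked on levels. Values by plate and statements on which plates overlap are on levels, while differences are after quantile normalization unless a sentence says otherwise. Between N18 and BV2, 13 members (15.5%) were higher in N18 and 17 (20.2%) were lower, beside 19.0% and 21.9% of all genes and targets. On both scales, 13 members were higher and 13 lower, beside 19.0% and 10.7% of all. On levels alone, 32 (38.1%) were higher and 16 (19.0%) lower, beside 38.8% and 13.1% of all. The shares of members called were thus near or below the background, apart from the lower calls on levels and on both scales, the latter 15.5% of members; no test of these shares was made. The median difference, N18 minus BV2, was -0.01 over the members and -0.06 over all genes and targets after quantile normalization, and 0.14 and 0.18 on the level scale.

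**Figure D2:**
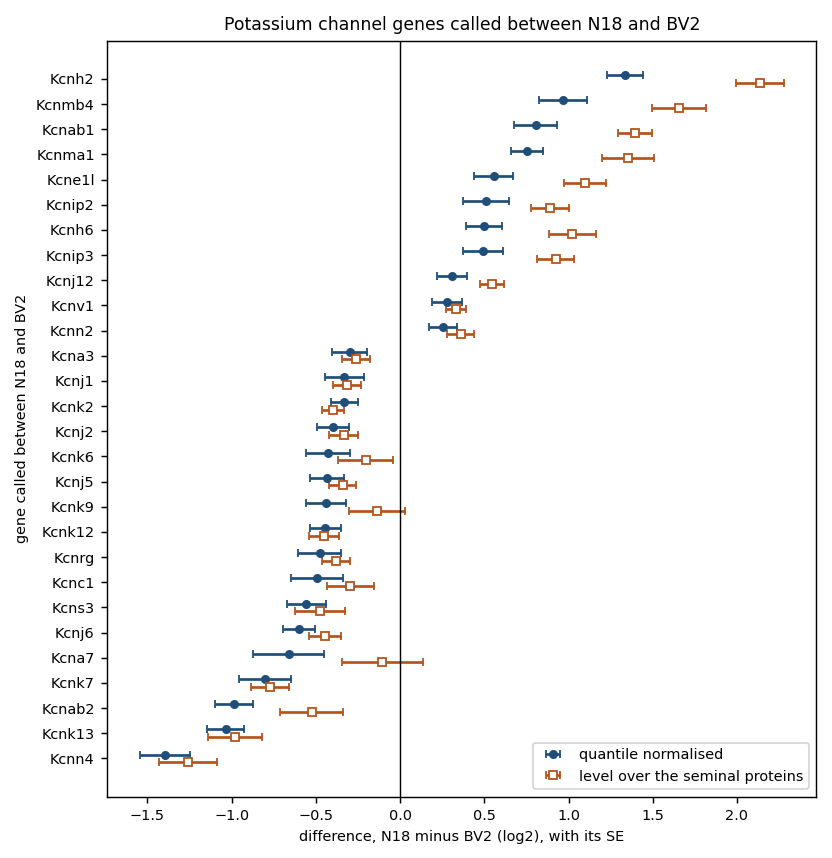
Difference between N18 and BV2 in log2 units for 28 potassium channel genes called between them, with the SE of the fit, after quantile normalization (filled circles) and as the level over the seminal proteins (open squares). The 11 plotted genes higher in N18 have a larger difference on the level scale, and Kcna7, Kcnk6 and Kcnk9 lie close to 0 on it.

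Among the 26 Kv pore-forming genes, 4 were higher in N18 and 3 in BV2. For this and the channel groups below, the shares over all genes and targets were 19.0% higher in N18 and 21.9% higher in BV2. No test of the counts by group was made. Kcnq3, a pore of the M-current, was above the threshold in no line, with levels of 0.32 to 0.41 in N18, -0.02 to 0.20 in BV2 and -0.14 to 0.21 in AtT20. Kcnq5, another M-current pore, was above it in all 3 lines, with an N18 minus BV2 difference of -0.01 (95% interval -0.35 to 0.32). In BV2, 1 of its 3 probes passed, and with the median of the probes Kcnq5 was below the threshold there. On levels Kcnq5 was called higher in N18, by 0.51 (limma adjusted p = 0.0199), so its order depends on the scale.

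Kcnh2, the ERG channel pore that repolarizes heart muscle and holds down firing in neuroblastoma and endocrine cells, had levels of 2.86, 2.90, 2.52 and 2.62 in N18. In BV2 it was 0.65, 0.61, 0.59 and 0.49, and in AtT20 0.44, 0.46, 0.19 and 0.28. No plate of N18 overlapped with another line, and all 3 probes were above the threshold in N18. It was higher in N18 than in BV2 by 1.34 ± 0.11 (SE; limma adjusted p = 2.93e-08), or 2.53-fold, with BV2 just above its threshold and, without plate 2, below that of the remaining plates (0.58 against 0.62). The related ERG pore Kcnh6 was higher by 0.50 ± 0.11 (limma adjusted p = 0.00133), with levels of 1.43 to 1.77 in N18 and 0.40 to 0.67 in BV2, where it was below the threshold without plate 4 (0.56 against 0.57). Kcnh2 and Kcnh6 thus lay on the same side of the comparison, without overlap of the N18 and BV2 plates.

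Among the Kv pores higher in BV2, Kcna7 and Kcnc1 were called after quantile normalization and not on levels, and each rested on 1 probe of 3. The middle probe of Kcna7 had a mean level of 3.48, 3.43 and 3.31 in AtT20, BV2 and N18, and its other probes were at or below 0.23. For Kcna7 the call was also lost without N18 plate 2 (-0.60), BV2 plate 2 (-0.62) or BV2 plate 3 (-0.54), and for Kcnc1 without N18 plate 1 (-0.45), N18 plate 2 (-0.45) or BV2 plate 2 (-0.45). Kcna3, the Kv pore known from T cells and microglia, was above the threshold in no line. Its levels were 0.29, 0.26, 0.12 and 0.24 in BV2, and 0.05, -0.04, 0.01 and -0.17 in N18, and the called difference of -0.30 (limma adjusted p = 0.0302) was lost without 7 of the 8 plates in turn. Kcna2, a Kv pore of axons, had levels from -0.30 to 0.03 over all 12 plates.

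Kcnd3, an A-type pore, was above the threshold in AtT20 at 0.33, 0.66, 0.47 and 0.76 and passed in neither other line. The targets of Kcnd3 disagreed: one was above the threshold in all 3 lines, at 1.25 in AtT20, 0.72 in BV2 and 1.09 in N18, and the other in none.

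Among the 8 modifier subunits, which make no channel alone and change the gating of the Kcnb family, 1 member was higher in N18 and 1 in BV2. Kcns3 was higher in BV2, with levels of 0.69, 0.50, 0.69 and 0.60 there and 0.08, 0.25, 0.11 and 0.13 in N18. These plates did not overlap, the difference was -0.56 ± 0.12 (limma adjusted p = 0.000949), and 1 of 3 probes was above the threshold in BV2. Kcnv1 was higher in N18 by 0.28 (limma adjusted p = 0.0188) while below the threshold in both lines. Kcng4 and Kcnf1 were above the threshold in both lines, with differences of 0.18 (95% interval -0.04 to 0.39) and -0.14 (-0.36 to 0.08). On levels Kcng4 was called higher in N18, by 0.61 (limma adjusted p = 3.1e-05).

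The 12 accessory subunits held 4 members higher in N18 and 1 higher in BV2. Kcnab1 and Kcnab2 encode related beta subunits that bind the inner face of Kv pores, and they moved in opposite directions. Kcnab1 had levels of 1.45, 1.64, 1.42 and 1.53 in N18, 0.33, 0.16, -0.11 and 0.08 in BV2 and -0.19, -0.21, -0.16 and -0.01 in AtT20. All N18 plates were above all others, and the difference to BV2 was 0.81 ± 0.13 (limma adjusted p = 8.59e-05), at least 1.3-fold since Kcnab1 was below the threshold in BV2. Kcnab2 had levels of 2.72, 2.19, 2.16 and 2.66 in BV2, 1.93, 2.03, 1.82 and 1.84 in N18 and 0.20, 0.66, 0.04 and 0.38 in AtT20. The 3 lines did not overlap, all 3 probes passed in both BV2 and N18, and N18 minus BV2 was -0.99 ± 0.11 (limma adjusted p = 2.81e-06), or 1.98-fold higher in BV2.

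Kcnip2 and Kcnip3 encode calcium-binding partners of A-type Kv pores. Both were above the threshold in N18 and in neither other line, with levels of 0.67 to 1.18 and 1.06 to 1.38 in N18 against -0.10 to 0.16 and 0.13 to 0.45 in BV2. Neither gene overlapped between these lines, and the differences were 0.51 ± 0.14 (limma adjusted p = 0.0067) and 0.49 ± 0.12 (limma adjusted p = 0.00269). The A-type pore Kcnd1 had levels of 1.04 to 1.30 in N18 and 0.12 to 0.50 in BV2, with a difference of 0.40 that did not pass the test after quantile normalization (95% interval -0.02 to 0.81), a called one of 0.82 on levels and a signal carried by 1 of 3 probes. Kcne1l, a single-pass regulatory subunit, was at 1.51, 1.50, 1.47 and 1.65 in N18 and 0.36, 0.56, 0.49 and 0.34 in BV2. Its plates did not overlap, 3 of 3 probes passed in N18, and it was at least 1.3-fold higher there (difference 0.56 ± 0.12, limma adjusted p = 0.00105). In AtT20 it was above the threshold at 0.43 and below it without plate 2 (0.34 against 0.36).

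Of the 10 calcium- and sodium-activated members, 3 were higher in N18 and 1 in BV2. Kcnma1 encodes the large-conductance calcium-activated pore, and Kcnmb4 its accessory subunit of neurons, and both were higher in N18. Kcnma1 was at 1.81, 2.03, 1.54 and 1.72 in N18, 0.50, 0.26, 0.48 and 0.44 in BV2 and 0.83, 1.21, 0.47 and 0.99 in AtT20. The N18 plates lay above all others, and all 3 probes passed in N18. Kcnmb4 was at 1.80, 2.23, 2.12 and 2.18 in N18, 0.20, 0.43, 0.65 and 0.43 in BV2 and 1.06, 0.89, 0.42 and 0.89 in AtT20. For both genes BV2 was below the threshold and AtT20 above it, and the N18 plates overlapped with neither. Against AtT20 the direction turned after quantile normalization, with N18 minus AtT20 at -0.83 for Kcnma1 (limma adjusted p = 6.07e-07) and -0.48 for Kcnmb4 (limma adjusted p = 0.00592). Kcnma1 was at least 1.5-fold higher in N18 than in BV2 (difference 0.75 ± 0.09, limma adjusted p = 6.11e-06) and Kcnmb4 at least 1.8-fold (difference 0.97 ± 0.14, limma adjusted p = 3.39e-05).

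Kcnn4, the intermediate-conductance calcium-activated pore of microglia, lymphocytes and red cells, went the other way. Its level was 2.43, 2.09, 1.98 and 2.07 in BV2, 0.93, 0.65, 0.93 and 1.01 in N18 and 0.65, 1.28, 0.76 and 1.15 in AtT20. Every BV2 plate was above every plate of the other lines, N18 and AtT20 plates overlapped, and 3 of 3 probes passed in BV2. After quantile normalization the order against AtT20 was another, with BV2 minus AtT20 at -0.18 and overlapping arrays (limma adjusted p = 0.272) and N18 minus AtT20 at -1.58 without overlap (limma adjusted p = 6.74e-08). N18 minus BV2 was -1.40 ± 0.15 (limma adjusted p = 1.01e-06), the largest difference towards BV2 among the members, and the fold of BV2 over N18 was 2.63. The small-conductance pores of the same family were below the threshold in both lines: Kcnn1 had 0.31 to 0.55 in BV2 and 0.43 to 0.83 in N18, and Kcnn3 0.19 to 0.24 and 0.07 to 0.43. Kcnn2 was higher in N18 by 0.25 (limma adjusted p = 0.0218), below the threshold in every line.

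**Figure D3:**
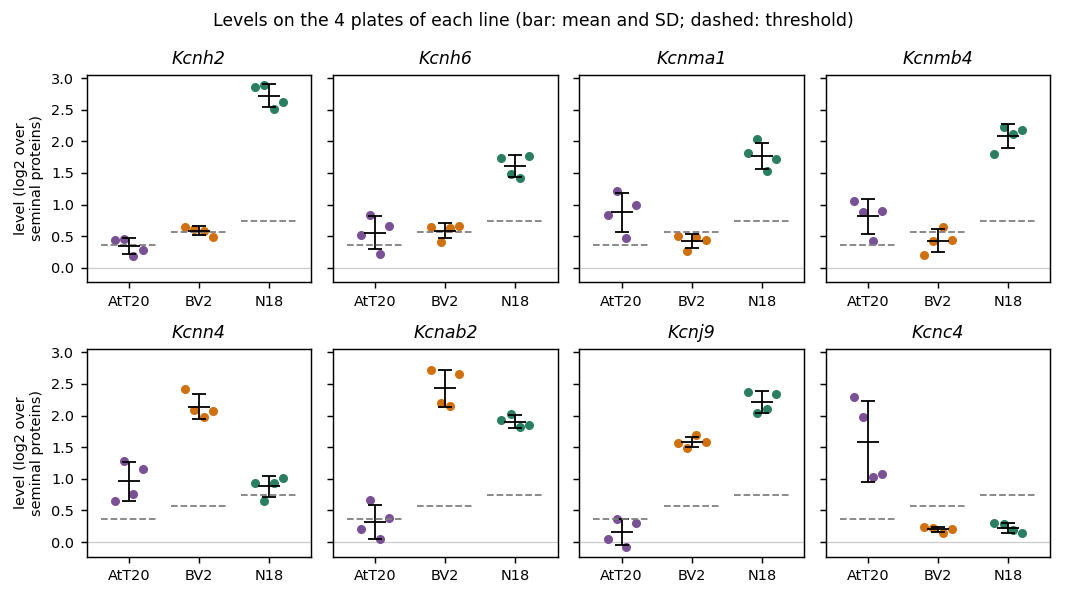
Levels of 8 potassium channel genes on the 4 plates of each line in log2 units over the seminal proteins, with the mean and SD in black and the threshold of each line as a dashed rule. The N18 plates of Kcnh2, Kcnh6, Kcnma1 and Kcnmb4 lie above all others, as do the BV2 plates of Kcnn4 and Kcnab2 and the AtT20 plates of Kcnc4.

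Among the 14 inward rectifiers, 1 was higher in N18 and 4 in BV2. Kcnj5 and Kcnj6 encode pores that G protein beta-gamma subunits open, and both were above the threshold in BV2 and in neither other line. Both lost the call in BV2 with olfactory receptor controls, 3 SD or all 4 plates required, and Kcnj6 also with the median of the probes. The targets of Kcnj6 disagreed: a target at 0.77 in BV2 was also above the threshold in AtT20, at 0.58, and another was above it in no line. Kcnj6 was at 0.78, 0.54, 0.67 and 0.67 in BV2, 0.28, 0.15, 0.09 and 0.37 in N18 and 0.17, 0.40, 0.12 and 0.36 in AtT20. Kcnj5 was at 0.66, 0.57, 0.70 and 0.56 in BV2, 0.30, 0.33, 0.23 and 0.28 in N18 and 0.07, 0.18, 0.13 and 0.18 in AtT20. In both genes the BV2 plates lay above all others, close to the threshold, and the differences, N18 minus BV2, were -0.60 ± 0.09 (limma adjusted p = 6.79e-05) and -0.43 ± 0.10 (limma adjusted p = 0.00285). Against AtT20 the order turned after quantile normalization, with BV2 minus AtT20 at -0.30 for Kcnj6 (limma adjusted p = 0.0081) and -0.15 for Kcnj5 (limma adjusted p = 0.2). Kcnj9, a further G protein-gated subunit, was at 2.37, 2.04, 2.10 and 2.34 in N18, 1.56, 1.49, 1.70 and 1.58 in BV2 and 0.05, 0.36, -0.08 and 0.30 in AtT20. Its levels did not overlap between any lines, but after quantile normalization N18 minus BV2 was 0.02 (95% interval -0.31 to 0.35), so its order between N18 and BV2 depends on the scale. Kcnj3, the subunit with which the others usually assemble, was at or below the seminal proteins on all 12 plates, down to -0.60, and passed in no line.

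Kcnj2, the classical inward rectifier of resting microglia and macrophages, was below the threshold in every line. Its levels of 0.54, 0.36, 0.32 and 0.64 in BV2 did not overlap with 0.17, 0.06, 0.09 and 0.20 in N18 or with -0.11, -0.31, -0.19 and -0.37 in AtT20. It was lower in N18 than in BV2 by 0.40 ± 0.10 on the log2 scale (difference -0.40, limma adjusted p = 0.00338). Kcnj1 was also higher in BV2, and the close relative Kcnj12 higher in N18 (difference 0.31, limma adjusted p = 0.0113), both below the threshold. Kcnj11, the pore of ATP-sensitive channels of endocrine cells, was above the threshold in all lines, at 1.44, 2.45, 0.98 and 2.01 in AtT20, 1.68, 1.20, 1.78 and 1.73 in BV2 and 1.67, 1.53, 1.56 and 1.81 in N18. The levels of the lines overlapped throughout, and 1 probe of 3 passed in AtT20 and N18 and 2 in BV2. After quantile normalization no lines overlapped, and Kcnj11 was lower than in AtT20 by 1.17 in BV2 and by 1.57 in N18 (differences -1.17 and -1.57, limma adjusted p = 1.52e-05 and 4.8e-07).

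By limma at an adjusted p under 0.05, 6 of the 13 two-pore-domain channels were higher in BV2 and none in N18. Over all genes and targets, 21.9% were higher in BV2 and 19.0% in N18. At an unadjusted p under 0.05, 1 channel was higher in N18, Kcnk3. On both scales, 4 were higher in BV2, beside 10.7% of all genes and targets. On levels alone, 3 were called higher in N18 and 4 in BV2, beside 38.8% and 13.1% of all. The 3 were Kcnk3 (0.82, limma adjusted p = 0.00022), Kcnk15 (0.60, limma adjusted p = 0.0117) and Kcnk1 (0.33, limma adjusted p = 0.00377). The median difference of the 13, N18 minus BV2, was -0.21 after quantile normalization, -0.14 on levels and -0.17 without normalization, where all genes and targets had -0.06, 0.18 and 0.15. Kcnk13, a leak channel of microglia whose current governs their resting potential, was at 1.43, 0.94, 1.15 and 1.32 in BV2, 0.29, 0.18, 0.15 and 0.31 in N18 and 1.64, 2.01, 1.17 and 1.46 in AtT20. N18 plates lay below all others, and BV2 and AtT20 overlapped. It was at least 1.3-fold higher in BV2 than in N18 (difference -1.04 ± 0.11, limma adjusted p = 9.57e-07), but 1 probe carried the level: it averaged 2.77, 2.15 and 1.08 in AtT20, BV2 and N18, and the others did not exceed 0.40. Its relative Kcnk12 was called lower in N18 on both scales, below the threshold in both of these lines.

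Kcnk7, a member of the family for which no current is known when it is expressed alone, was at 0.92, 0.85, 0.99 and 0.84 in BV2, 0.24, 0.04, 0.09 and 0.14 in N18 and 1.53, 1.64, 1.31 and 1.53 in AtT20. The 3 lines did not overlap, and Kcnk7 was at least 1.1-fold higher in BV2 than in N18 (difference -0.80 ± 0.15, limma adjusted p = 0.000495). Only 1 of its 3 probes was above the threshold in BV2, and the call was lost with the median of the probes. The acid-sensitive leak channel Kcnk9 and the leak channel Kcnk6 were called lower in N18 after quantile normalization (differences -0.44 and -0.43), while their levels overlapped and were not called. Kcnk9 had 1.77, 0.95, 1.14 and 1.51 in BV2 and 1.35, 0.99, 1.09 and 1.38 in N18, and Kcnk6 had 1.27, 0.81, 0.75 and 1.24 and then 0.80, 0.67, 0.69 and 1.09. For Kcnk6 the call was lost without N18 plate 2 (-0.37) or BV2 plate 4 (-0.39), and its N18 level was below the threshold without plate 4 (0.72 against 0.74). Kcnk2, a stretch-sensitive leak channel, was called lower in N18 on both scales, with levels below 0 in all 3 lines. Kcnk15 was above the threshold in all lines on 1 probe of 3. In BV2, at 0.60, its call was lost without plate 1, where its level fell (0.55 against 0.56). It was also lost without plate 2, where the threshold of the remaining plates rose (0.60 against 0.62). In AtT20, Kcnk9 was below the threshold without plate 2 (0.35 against 0.36) or plate 4 (0.34 against 0.35).

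Kcnrg, which encodes no channel but a cytosolic protein that binds Kv subunits, was higher in BV2. It was at 0.77, 0.52, 0.74 and 0.72 there and at 0.36, 0.29, 0.30 and 0.29 in N18, without overlap (difference -0.48 ± 0.13, limma adjusted p = 0.0064). A single probe of 6 was above the threshold in BV2.

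**Figure D4:**
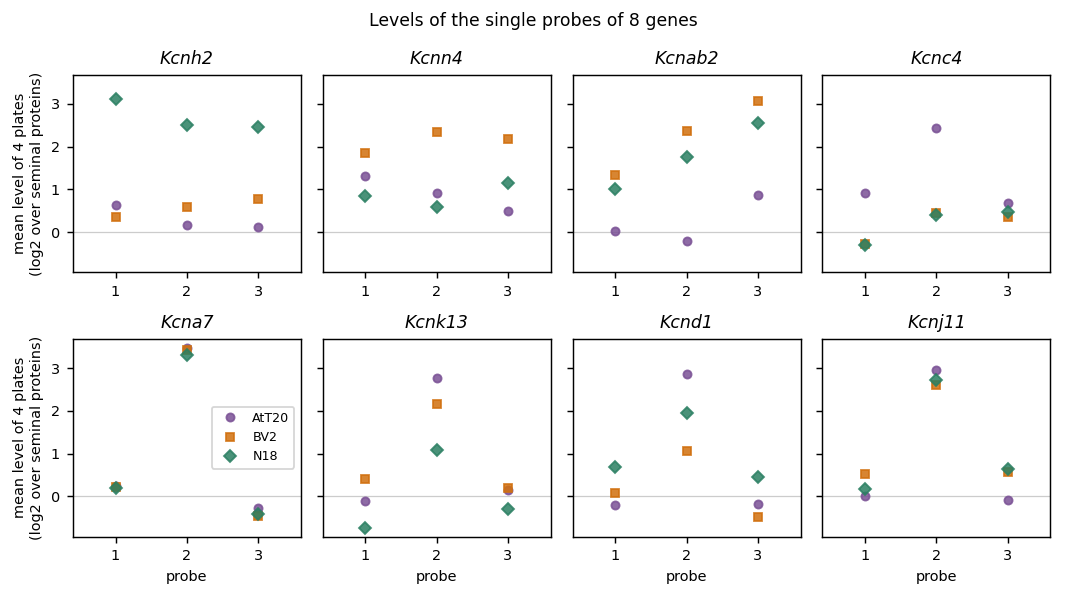
Mean level over the 4 plates of a line for each probe of 8 potassium channel genes, in log2 units over the seminal proteins. N18 is highest on all 3 probes of Kcnh2 and BV2 on all 3 of Kcnn4 and of Kcnab2, whereas the levels of Kcna7, Kcnk13, Kcnd1 and Kcnj11 come mostly from 1 probe.

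Comparisons with the plates labelled AtT20 depended on the scale, since the median difference over all genes and targets, BV2 minus AtT20, was -0.23 after quantile normalization, 0.28 on levels and -1.08 without normalization. For N18 minus AtT20 these medians were -0.25, 0.54 and -0.85. After quantile normalization, 5 members were higher and 60 lower in BV2 than in AtT20, beside 26.6% and 47.0% of all genes and targets, and 8 were higher and 62 lower in N18 than in AtT20, beside 27.8% and 48.6%. Called in the same direction on both scales were 5 higher and 20 lower (6.0% and 23.8% of members) in BV2, beside 26.6% and 17.2% of all, and 8 higher and 16 lower (9.5% and 19.0% of members) in N18, beside 27.8% and 16.0%. On levels alone, 23 members (27.4%) were higher in BV2 and 38 (45.2%) in N18, beside 50.4% and 60.7% of all, and 20 and 16 were lower, beside 17.6% and 16.3%. The share of members higher in BV2 or N18 than in AtT20 was thus below that of all genes and targets under each of these rules, and no test of the shares was made. Called lower after quantile normalization and higher on levels were 18 members in N18, among them Kcnh6, Kcne1l, Kcnip2, Kcnma1, Kcnmb4 and Kcnq5, and 4 in BV2, which were Kcnj6, Kcnk1, Kcnq5 and Kcnt1. The pairs share the AtT20 plates, so they are not independent of each other. That these plates lacked most markers of their labelled cell type, and had the narrowest intensities, moved with these counts, and its part in them was not tested.

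**Figure D5:**
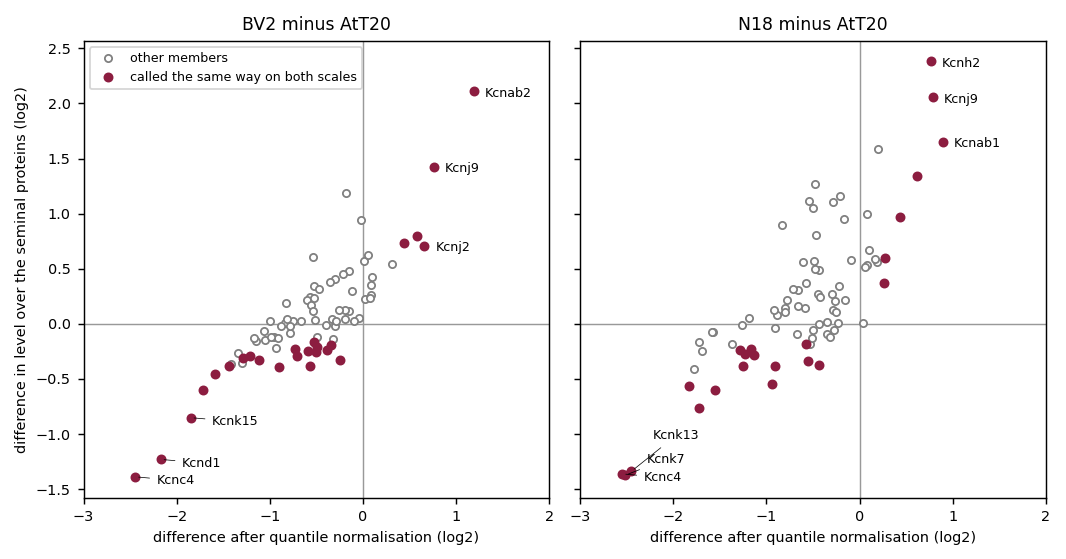
Difference of 81 potassium channel genes from the plates labelled AtT20, after quantile normalization (horizontal axis, log2) and in level over the seminal proteins (vertical axis, log2), for BV2 (left) and N18 (right). Filled points were called in the same direction on both scales; Kcnc4 lies furthest towards AtT20 on the horizontal axis of both panels, and many open points are negative on the horizontal axis and near or above 0 on the vertical.

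Kcnc4, a fast inactivating Kv pore, was the member with the largest difference towards AtT20 in both pairs after quantile normalization. Its level was 2.29, 1.97, 1.03 and 1.07 in AtT20, 0.24, 0.23, 0.14 and 0.21 in BV2 and 0.30, 0.29, 0.19 and 0.14 in N18. AtT20 plates lay above all others although they spread over more than 1 log2 unit, and 3 of 3 probes passed. Kcnc4 was at least 2.0-fold higher in AtT20 than in BV2 (difference -2.45 ± 0.14, limma adjusted p = 1.67e-10) and at least 1.7-fold higher than in N18 (difference -2.55 ± 0.14, limma adjusted p = 9.5e-11). The level scale gave -1.39 and -1.36, and in N18 the level difference of Kcnk7 was slightly larger, at -1.38.

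Further members were called lower on both scales and were above the threshold in AtT20. Against BV2 they were Kcnd1, Kcnk7, Kcnk12, Kcnk15, Kcnma1, Kcnmb4 and Kcnn3, and against N18 they were Kcnc1, Kcnh8, Kcnk7, Kcnk12, Kcnk13, Kcnn3, Kcnq1 and Kcns3. Kcnk7 was at least 1.6-fold higher in AtT20 than in N18 (difference -2.52 ± 0.15, limma adjusted p = 3.76e-10), and Kcnk13 at least 1.7-fold (difference -2.45 ± 0.11, limma adjusted p = 9.75e-12). Kcnd1 was at 1.01, 2.17, 1.42 and 1.78 in AtT20, above all BV2 plates, and at least 2.0-fold higher (difference -2.17 ± 0.20, limma adjusted p = 4.44e-08), but 1 probe of 3 carried it and the difference turned with the median of the probes (0.08).

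Towards BV2, the called members were Kcnab2, Kcnj9, Kcnf1, Kcng4 and Kcnj2. Kcnab2 was at least 1.5-fold higher in BV2 than in AtT20 (difference 1.19 ± 0.11, limma adjusted p = 1.03e-07). Kcnf1 and Kcng4, both modifiers of Kcnb pores, were higher by 0.58 and 0.44 after quantile normalization, and without normalization these differences turned to -0.57 and -0.63. Towards N18, the called members included Kcnab1, Kcnj9, Kcnh2, Kcng4, Kcnf1, Kcnj12 and Kcnj2. Kcnh2 was at least 1.5-fold higher in N18 than in AtT20 (difference 0.76 ± 0.11, limma adjusted p = 6.57e-06), Kcnj9 at least 1.1-fold (0.79 ± 0.16, limma adjusted p = 0.000258), and Kcnab1 differed by 0.89 ± 0.13 (limma adjusted p = 9.29e-06). Without normalization, Kcnf1 and Kcng4 turned here too, to -0.42 and -0.05, and the calls of Kcnab1 in N18 (0.26, limma adjusted p = 0.196) and of Kcnj9 in BV2 (0.06, limma adjusted p = 0.783) were lost.

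Genes whose products bind, place or accompany these channels were taken from a separate list of 20, of which 18 were measured. Between N18 and BV2, 5 of the 18 were higher and 2 lower in N18, beside 19.0% and 21.9% of all genes and targets. No test of these shares was made. Ank3, the ankyrin that anchors Kcnq channels at the axon initial segment, was higher in N18 by 2.48 ± 0.12 (limma adjusted p = 8.72e-11), with mean levels of 4.03 in N18, 0.80 in BV2 and 0.87 in AtT20. Amigo1, an auxiliary protein of Kv pores, was higher by 0.95 ± 0.18 (limma adjusted p = 0.000477), with mean levels of 3.45 in N18, 1.80 in BV2 and 0.56 in AtT20. The pacemaker pores Hcn2 and Hcn3 and the postsynaptic scaffold Dlg4 were also higher in N18, although Hcn3 was above the threshold in no line (0.58 in N18). Lgi1 and Cntn2, secreted and surface proteins of Kv complexes, were lower in N18, Lgi1 only after quantile normalization. Abcc8 and Abcc9, the sulfonylurea receptors that complete ATP-sensitive channels with Kcnj11, were above the threshold in no line, with mean levels of at most 0.43.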

How the data were processed

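Total RNA of 12 cultures was hybridized by the authors to single-color NimbleGen arrays with 60-base probes, 3 per target (design MM8). The authors deposited log2 intensities per probe; whether these were background corrected is not given in the sources used here. The labels do not say which plates shared a slide, so slide could not be tested as a batch, and p-values measure only the spread between plates of a line. Arrays give no read depth; their number limits the precision.

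Row names were cut to transcript accessions and matched to symbols in a RefSeq table (GRCm38.p6, gene coordinates not used): 17780 of 25631 targets (69.4%) matched, giving 17277 genes and 7851 unnamed targets. Levels followed the detection rule of the study, with targets of 1 gene averaged. For line comparisons, lmFit and eBayes with a trend (limma 3.58.1, R 4.3.3) were run on quantile normalized probes of all 12 arrays, with Benjamini-Hochberg adjustment over 25128 features; the code was tested on simulated data. An "at least" fold is the smallest over 3 scalings, with the lower line at the higher of its own value and its threshold on each plate, rounded down.

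Counts are over all 84 members, and results for 3 of them are not reported singly here. Members, lists and named genes were chosen with earlier results of these data known. Named were, per pair and direction, up to 10 called genes with the largest difference that were above the threshold in the higher line, up to 8 per line by level, and genes studied in microglia, neurons and endocrine cells; other names, the motifs and the windows were chosen after their values were seen. Calls on both scales and at least 2 probes above the threshold were alternatives added after seeing the data; the others covered scaling, probe and target summaries, the threshold, a filter, the arrays fitted, a replicate block and leaving out each plate.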

Additional observations from a re-analysis of the deposited data

Results flagged for a closer look

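The level of Kcnrg on N18 plate 1 was 0.36, while the other 3 plates lay between 0.29 and 0.30. The gap was 0.847 of the range of the 4 plates, above Dixon's 95% critical value. It was the only one of 108 groups of 4 plates checked, where chance flags about 1 in 20. All 4 values were below the threshold of N18.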

How the results depend on the processing

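In AtT20 the count of 29 genes above the threshold became 18 with the median of the probes, 17 with olfactory receptor genes as controls and 14 with at least 2 probes required. In BV2 the count of 27 became 17, 9 and 17 under the same settings, 13 with 3 SD and 14 with all 4 plates required, and in N18 it became 15 with the olfactory receptor controls. For N18 against BV2, the 13 higher genes became 32 on levels and 2 with a difference of at least 1, and the 17 lower genes became 7 without normalization, 9 with the median of the probes, 28 with only the 8 arrays of the pair and 2 with a difference of at least 1. Against AtT20, BV2 had 1 higher gene without normalization, 23 on levels, 9 with the median of the probes and 1 with a difference of at least 1, and 20 lower genes on levels and on both scales, 33 among genes above the threshold and 18 with a difference of at least 1. N18 had 3 higher genes without normalization, 38 on levels and 0 with a difference of at least 1 (limma, against 8 at any size), and 16 lower genes on levels and on both scales, 41 with the median of the probes, 35 among genes above the threshold and 20 with a difference of at least 1. Leaving out each plate in turn gave 24 to 30, 25 to 28 and 25 to 28 genes above the threshold in AtT20, BV2 and N18, and in the order of the pairs 5 to 6 and 57 to 62, 7 to 10 and 57 to 62, and 11 to 13 and 12 to 16 calls. Direction turned for Kcnd1 against AtT20 with the median of the probes (0.083 in BV2, 0.44 in N18) and for Kcnf1 (-0.57 and -0.42) and Kcng4 (-0.63 and -0.050) without normalization. With the median of the probes, AtT20 levels turned to -0.11 for Kcnd1, -0.10 for Kcnk6 and -0.0039 for Kcnn1. Causes were not tested. Of the other recomputed differences 872 stayed on their side of the test, 13 of which were uncalled and changed sign, 46 lost the call and 6 gained it. Of the other levels 969 kept their side of the threshold, 103 lost the call and 5 gained it. With the replicate block, N18 against BV2 gave 13 higher and 17 lower genes, all 30 shared. Same-numbered plates correlated at -0.11 to 0.32 in their deviations. Plates of different numbers were not correlated beside them, so whether the numbers pair the plates was not tested.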
